A study of Mus musculus with 27 samples.

Results

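A group of 10 extracellular matrix genes was followed through the injury and repair of mouse skeletal muscle: tenascin C (Tnc), periostin (Postn), thrombospondins (Thbs1, Thbs2 and Thbs4), Sparc, fibronectin (Fn1), cartilage oligomeric matrix protein (Comp), fibromodulin (Fmod) and tenomodulin (Tnmd). The entries were taken by gene name, and all 10 were found once in each deposited table, among 55852 entries in the table of injured muscle and 55677 in the table with control muscle. All 10 also passed the filter on low values in both tables. Gastrocnemius muscle of male mice was injured with cardiotoxin (CTX, a snake venom peptide that lyses myofibres) and bulk RNA was sequenced on day 1, 4, 7 and 14 (D1, D4, D7 and D14). The animals were WT C57BL/6J mice or mice with a germline loss of Gsdme, the gene of the pore-forming protein gasdermin E, in every tissue (KO). Each genotype and day had 3 libraries, and 3 further libraries came from uninjured WT muscle (control), with no KO counterpart. No age is given in the labels, and all injured groups shared the CTX injection. The sample titles say KO, the genotype field of those samples says knockdown, and the deposited description names thigh and unloaded muscle where the study names gastrocnemius and the uninjured muscle of the other leg. Nothing in the labels says whether the 3 libraries of a group came from separate mice, so that p-values measure the spread between libraries, which may be technical.

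The extracellular matrix holds structural proteins, such as collagens and fibronectin, and matricellular proteins, which sit in the matrix but mainly alter how cells attach, migrate and receive growth factors. Tenascin C, periostin, thrombospondins and SPARC are matricellular proteins. Some of them, such as tenascin C and periostin, are scarce in most resting adult tissues and abundant in wounds, where fibroblasts make much of them. Tenomodulin, a membrane protein of tendon cells, fibromodulin, a small leucine-rich proteoglycan that binds collagen fibrils, and COMP, a pentameric thrombospondin that is also called thrombospondin 5, are best known from tendon, ligament and cartilage. Thrombospondin 4 is likewise abundant in tendon and also at the junctions of muscle with tendon.

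Gene levels are given in TPM (transcript abundance corrected for transcript length and expressed as a share of a fixed library total), so that levels can be compared between genes. Read depth is unknown, because TPM carries no read number. From 11785 to 14704 genes reached 1 TPM in a library. Replicate 2 of KO D4, with 12961 such genes against 14380 and 13960, and replicate 2 of KO D7, with 12849 against 13855 and 13816, stood below the other libraries of their groups. The next gap was that of replicate 3 of WT D1, with 495 fewer such genes than the next library of its group, and results without it are given apart. All 8 mature myofibre markers reached a mean of 1 TPM in every group, and their summed level ran from 121229 to 127690 TPM in control and from 27982 to 127173 TPM in injured muscle. Gsdme was at 2.76, 4.85 and 3.16 TPM in WT and at 1.53, 1.28 and 2.17 TPM in KO on D1, and the genotypes also did not overlap on D4 and D7. On D14 the WT libraries held 1.46, 2.21 and 2.26 TPM and the KO libraries 1.96, 1.77 and 1.27 TPM, which overlap. Differences below are differences of group means of log2(TPM + 1) with the standard error (SE) from limma, and a gene was called when its p-value, adjusted by Benjamini-Hochberg over all genes tested, was under 0.05. In whole muscle, fewer cells of a type and less RNA per cell cannot be told apart.

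The promoters of Tnc, Postn and Thbs2, whose WT means were highest on D4, are shown first. Beside them stand those of the tendon genes Fmod and Tnmd, whose WT means were highest on D7. These are not separate classes, since Tnmd was also called higher from D1 to D4 and the D7 libraries of Fmod overlapped those of D14. Thbs4, also highest on D4, had a window that is not printed. The bases just before the start site were taken from RefSeq's promoter table (build GRCm38.p6), which had windows for 7 of the 10 genes. Where a gene had 2 windows, the start nearest to most GENCODE transcript starts was used, and bases inside an annotated exon were left off. Capitals mark matches, on either strand, to TATAAA (the TATA box), CAGACA (bound by SMAD proteins), TGANTCA (AP-1), CAGATG or CACCTG (E-boxes). The stretches lie at chr4:64047016-64047265 on the minus strand (Tnc), chr3:54360857-54361106 on the plus strand (Postn), chr17:14694263-14694512 on the minus strand (Thbs2), chr1:134037004-134037253 on the plus strand (Fmod) and chrX:133850758-133850979 on the plus strand (Tnmd).
Tnc: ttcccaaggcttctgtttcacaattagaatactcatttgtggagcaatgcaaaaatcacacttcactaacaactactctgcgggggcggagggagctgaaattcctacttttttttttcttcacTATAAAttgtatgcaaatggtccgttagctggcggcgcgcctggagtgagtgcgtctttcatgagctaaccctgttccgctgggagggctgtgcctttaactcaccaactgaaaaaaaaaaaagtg
Postn: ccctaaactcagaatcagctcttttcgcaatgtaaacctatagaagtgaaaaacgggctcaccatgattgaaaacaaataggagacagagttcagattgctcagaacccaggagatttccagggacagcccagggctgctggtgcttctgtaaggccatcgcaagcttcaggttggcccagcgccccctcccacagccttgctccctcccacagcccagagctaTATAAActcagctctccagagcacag
Thbs2: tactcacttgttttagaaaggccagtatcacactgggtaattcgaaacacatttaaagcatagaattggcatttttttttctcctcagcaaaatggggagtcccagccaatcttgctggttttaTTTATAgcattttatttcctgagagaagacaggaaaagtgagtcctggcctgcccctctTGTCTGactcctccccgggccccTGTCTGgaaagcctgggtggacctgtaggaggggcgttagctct
Fmod: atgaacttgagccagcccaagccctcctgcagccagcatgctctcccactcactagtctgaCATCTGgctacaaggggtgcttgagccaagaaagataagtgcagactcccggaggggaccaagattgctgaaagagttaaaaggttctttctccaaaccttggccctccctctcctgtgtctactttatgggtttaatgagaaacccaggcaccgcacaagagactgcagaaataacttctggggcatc
Tnmd: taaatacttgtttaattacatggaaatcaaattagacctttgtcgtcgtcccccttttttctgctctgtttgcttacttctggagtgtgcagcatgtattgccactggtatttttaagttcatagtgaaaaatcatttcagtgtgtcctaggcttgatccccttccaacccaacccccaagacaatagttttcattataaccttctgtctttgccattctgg

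TATAAA was found before the start in Tnc, Postn and Thbs2, at position -26 in Postn and at position -126 in Tnc, and was held by 12.4% of all 32851 promoter windows over the same 250 bases. No match to TATAAA was found in the windows of Thbs4, Fmod or Tnmd. The window of Sparc overlaps annotated exons over most of its length and is not described. CAGACA, in 17.1% of all windows, occurred in Thbs2 at 2 places and also in Thbs4. CAGATG, in 14.4% of all windows, was found in Fmod. TGANTCA and CACCTG, in 6.75% and 17.2% of all windows, were found before the start in none of the 6 genes described. A match describes letters only and says nothing about whether a factor binds there. The genes themselves lie on chromosomes 4 (Tnc, from 63959785 to 64047015), 3 (Postn, 54361109 to 54391037), 2 (Thbs1, 118111876 to 118127133), 17 (Thbs2, 14665500 to 14694235), 13 (Thbs4, 92751590 to 92794818), 11 (Sparc, 55394500 to 55423183), 1 (Fn1, 71585520 to 71653200, and Fmod, 134037254 to 134048277), 8 (Comp, 70373558 to 70382066) and X (Tnmd, 133850980 to 133865577), in GENCODE coordinates of the same build. Each is a separate locus, and no pair of them lies side by side.

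The 10 genes together made up 0.123%, 0.0754% and 0.120% of all TPM in the control libraries, 0.721%, 0.784% and 0.841% in WT D4 libraries and 0.148%, 0.206% and 0.0622% in WT D14 libraries. Among the WT days, 6 of the genes had their highest mean on D4, namely Sparc, Fn1, Postn, Tnc, Thbs2 and Thbs4. Thbs1 had its highest mean TPM on D1, and Comp, Fmod and Tnmd had theirs on D7. For Thbs1, Thbs4, Comp and Fmod the libraries of that day overlapped those of the day with the next highest mean, so their highest day is uncertain. For the other genes these days did not overlap. Sparc was the most abundant of the 10 by mean in every group, with a mean of 632 TPM in control and 3303 TPM on D4 in WT, where it ranked 35 among all genes. Postn moved from rank 5883 in control to rank 82 in WT D4 muscle. The plot of TPM by day shows these courses library by library.

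**Figure D1:**
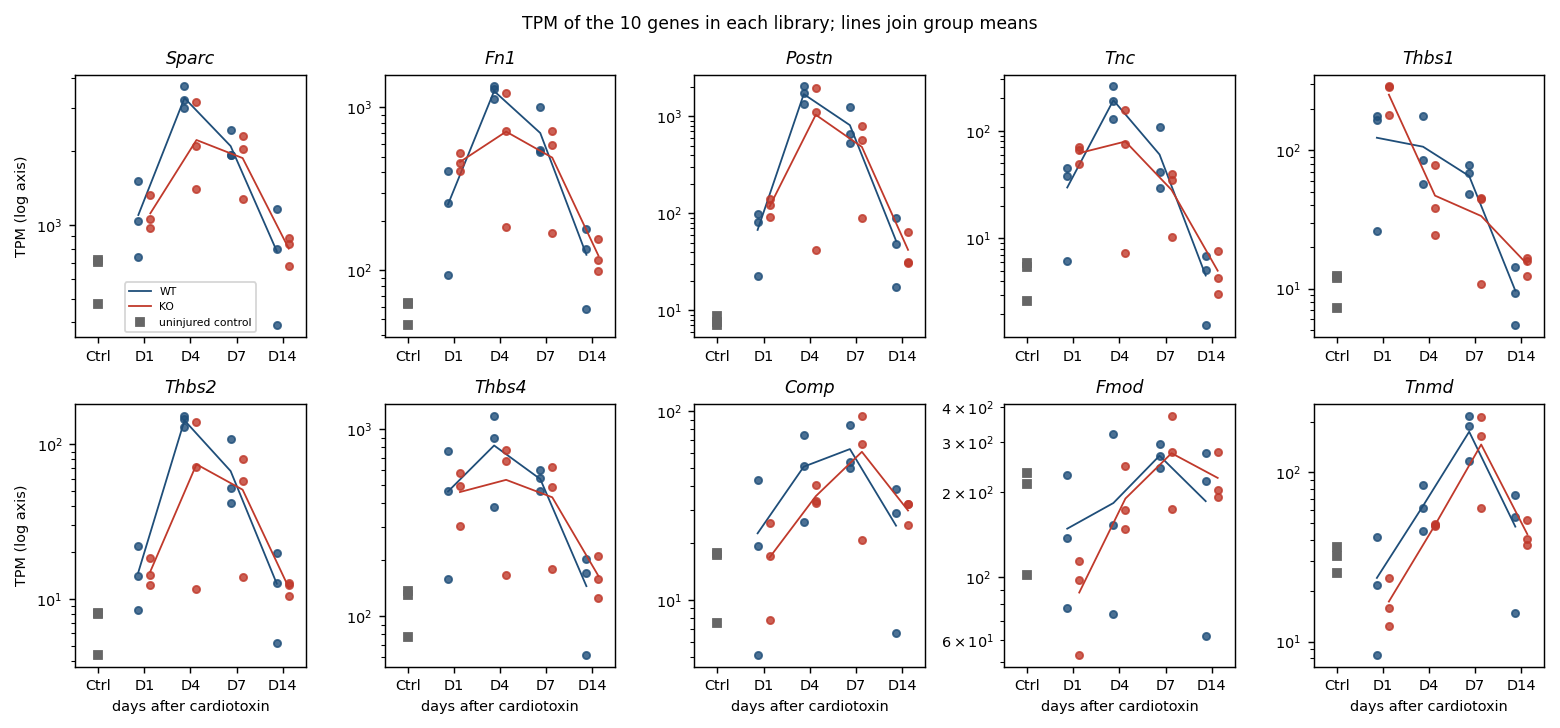
TPM of each gene (log axis) in the 3 uninjured control libraries (grey squares, from the separately quantified control table) and in the 24 injured libraries of WT (blue) and KO (red) muscle on D1, D4, D7 and D14, with lines through group means. Postn in WT climbs to between 1331 and 2037 TPM on D4 and is back between 17.3 and 90.5 TPM on D14, whereas Tnmd is highest on D7, and the lowest KO D4 point of Postn and Tnc is replicate 2.

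The early response to injury was asked of WT D1 against control muscle. Of the 10 genes, 6 were called higher on D1 and none lower, and 55.4% of all 13041 genes tested were called higher in this comparison, so that the share is close to that of all genes. The median difference was 1.38 over the 10 genes and 0.66 over all genes. Control and D1 muscle may have been sequenced in separate batches, since the study describes a batch of injured and uninjured muscle at this time and another of both genotypes over the 4 days, and the labels do not say to which the WT D1 libraries belonged. If they differ, batch and injury cannot be told apart here. The study took its uninjured muscle from the other leg, so control and D1 libraries may be pairs from the same mice. Labels do not give such pairs, and the main fit used none. A control from the other leg may also carry effects of the injury on the whole animal, which were not tested.

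Thbs1, an inhibitor of blood vessel growth and an activator of latent TGF-beta that platelets also store, had 11.9, 7.29 and 12.2 TPM in control and 167, 177 and 26.3 TPM in WT D1 muscle. The groups did not overlap, and the difference was 3.06 (SE 0.65, adjusted p = 0.00544). Platelet and megakaryocyte markers moved the same way, with a sum over 5 genes of 22.7 to 31.2 TPM in control and 152 to 619 TPM on D1. Of these 5 genes, only 1 reached a mean of 1 TPM in control and 3 on WT D1, so few genes carry the sum. Macrophage markers, 6 in the list, summed to 31.4 to 37.6 TPM in control and to 236 to 938 TPM on D1. The part of either cell type in the Thbs1 difference was not tested.

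Postn, a secreted protein that binds integrins and helps cross-link collagen, had 7.65, 7.00 and 8.80 TPM in control and 82.7, 97.9 and 22.8 TPM on D1, a difference of 2.73 (SE 0.48, adjusted p = 0.00299). Tnc, a large hexameric glycoprotein that weakens cell adhesion, had 5.89, 2.64 and 5.48 TPM in control and 39.5, 46.4 and 6.37 TPM on D1, a difference of 2.15 (SE 0.65, adjusted p = 0.0208). The third D1 library lay just above the highest control library for Tnc, and was the lowest of its group for all 10 genes. Its myofibre markers summed to 125507 TPM, against 75980 and 59279 TPM in the other D1 libraries, which is as high as in control muscle. Fn1, the fibril-forming glycoprotein of provisional wound matrix, had 62.4, 46.0 and 62.9 TPM in control and 260, 405 and 93.5 TPM on D1, a difference of 1.91 (SE 0.46, adjusted p = 0.00881).

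Thbs4 had 130, 76.9 and 136 TPM in control and 467, 764 and 158 TPM on D1, a difference of 1.78 (SE 0.52, adjusted p = 0.0175). Thbs2, a matricellular inhibitor of vessel growth like Thbs1, showed a smaller difference of 0.97 (SE 0.35, adjusted p = 0.0405). The calls of Fn1, Tnc, Thbs4 and Thbs2 depended on the scaling. With median-of-ratios scaling, which brings the median of all genes from 0.66 to -0.01 and the share of calls that are higher from 90.8% to 48.9%, adjusted p was 0.058 for Fn1, 0.0924 for Tnc, 0.117 for Thbs4 and 0.466 for Thbs2, while Thbs1 and Postn stayed called. Only 3 of the 10 were called without replicate 2 of control or without replicate 1 of WT D1, and 8 without replicate 3 of WT D1, where Sparc (0.98, adjusted p = 0.0015) and Comp (1.07, adjusted p = 0.0102) were called as well. The shares of all genes called without these libraries are not given.

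Sparc, a collagen-binding protein that aids fibril assembly, had 717, 474 and 706 TPM in control and 1016, 1483 and 725 TPM on D1, which did not pass the test (difference 0.73, SE 0.29, adjusted p = 0.0582) and turned to -0.06 with median-of-ratios scaling. The tendon genes had no called difference. Tnmd was at 36.3, 25.6 and 32.2 TPM in control and at 21.5, 41.2 and 8.35 TPM on D1, a difference of -0.63 (SE 0.47, adjusted p = 0.265). Against the median of all genes this is -1.29, and with median-of-ratios scaling Tnmd was called lower (-1.39, adjusted p = 0.0289). Fmod was at 234, 102 and 213 TPM in control and at 134, 223 and 75.5 TPM on D1, with a difference of -0.39 (SE 0.43, adjusted p = 0.442), and was called lower with median-of-ratios scaling only (-1.18, adjusted p = 0.0359) among the scalings. Comp was at 17.7, 7.54 and 17.3 TPM in control and at 19.2, 43.3 and 5.13 TPM on D1, with a difference of 0.30 (SE 0.65, adjusted p = 0.696) that changed sign with each other scaling tried. The D1 libraries spread more widely than the control libraries for each of these tendon genes.

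From D1 to D4 in WT muscle, 6 of the 10 genes were called higher and none lower, where 14.6% of all 15718 genes tested were called higher. The median difference was 1.62 over the 10 genes and 0.17 over all genes. Postn changed the most of the 10. It was at 82.4, 97.6 and 22.8 TPM on D1 and at 1728, 2037 and 1331 TPM on D4, far from overlap, with a difference of 4.85 (SE 1.03, adjusted p = 0.0027). Thbs2 went from 14.2, 22.1 and 8.49 TPM to 154, 129 and 147 TPM, a difference of 3.27 (SE 0.69, adjusted p = 0.00249). Its D4 libraries were close together, and the ratio of the D4 to the D1 mean was 9.61.

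Tnc rose from 38.2, 44.9 and 6.15 TPM to 258, 129 and 190 TPM (difference 2.99, SE 0.85, adjusted p = 0.0178). Fn1 rose from 261, 407 and 93.9 TPM to 1134, 1303 and 1345 TPM (2.54, SE 0.63, adjusted p = 0.00729), and Sparc from 1034, 1518 and 741 TPM to 3231, 2997 and 3682 TPM (1.65, SE 0.35, adjusted p = 0.00255). All D4 libraries lay above all D1 libraries for 6 of the 10 genes, these 5 and Tnmd. The share of all genes that did so is not given. Tnmd was called as well, at 21.8, 41.2 and 8.38 TPM on D1 and 44.9, 61.7 and 83.7 TPM on D4 (1.59, SE 0.54, adjusted p = 0.0458). That call was lost with median-of-ratios scaling (adjusted p = 0.0638) and without any 1 of 5 of the 6 libraries. Without replicate 3 of WT D1 only 3 of the 10 were called, and Tnc (2.13, adjusted p = 0.122) and Fn1 (1.95, adjusted p = 0.0547) were not. The share of all genes called in that smaller fit is not given.

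Thbs1 had no called difference and was at 177, 85.4 and 56.6 TPM on D4 after 166, 177 and 26.2 TPM on D1. The D4 library with the most Thbs1, replicate 1, also had the highest platelet marker sum of its group (602 TPM against 144 and 95.4 TPM) and the highest macrophage marker sum (944 TPM against 485 and 383 TPM). On WT D4, 3 of the 5 platelet markers reached a mean of 1 TPM. Thbs4 was at 381, 889 and 1178 TPM on D4 and was not called (0.94, SE 0.63, adjusted p = 0.331). Comp, at 25.7, 51.4 and 74.9 TPM, had a difference of 1.43 (SE 0.67, adjusted p = 0.146). Within the WT D4 group the order of libraries for Thbs4, Comp, Fmod and Tnmd was the same, with replicate 1 lowest and replicate 3 highest, and it was the reverse for Thbs1. Fmod was at 73.9, 153 and 322 TPM.

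Regenerating muscle markers were highest on this day, with a sum over 6 genes of 1181 to 1816 TPM in WT D4 muscle against 100 to 159 TPM on D1. The sum over 7 markers of fibro-adipogenic progenitors, the resident fibroblast-like cells of muscle, was 1229 to 1364 TPM on D4 and 1141 to 1536 TPM on D1, which overlap. Cartilage and bone markers, 10 in the list, summed to no more than 5.98 TPM in any injured library and 11.5 TPM in any control library.

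From D4 to D7 in WT muscle no gene of the 10 was called by limma, where 12.3% of all genes were called in either direction. At an unadjusted p under 0.05 there were 2 of the 10 and 5263 of all genes. The libraries of the 2 days did not overlap for 5 genes that were lower on D7 (Tnc, Postn, Thbs2, Sparc and Fn1), and 33.2% of all genes were without overlap and lower. Tnc had 109, 41.7 and 29.5 TPM on D7 (difference -1.83, SE 0.85, adjusted p = 0.141). Tnmd was without overlap and higher, at 217, 189 and 116 TPM (1.44, SE 0.54, adjusted p = 0.0809). The share of all genes without overlap and higher is not given. Tnmd was called with each other scaling (adjusted p from 0.0242 to 0.0342) and when the WT D4 and D7 groups were fitted alone (adjusted p = 0.0336).

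From D7 to D14 in WT muscle 8 of the 10 genes were called lower, where 30.9% of all genes were called lower. The median difference was -2.22 over the 10 genes and -0.45 over all genes. Postn was at 1253, 658 and 527 TPM on D7 and at 48.9, 90.5 and 17.3 TPM on D14, which is a difference of -4.12 (SE 1.03, adjusted p = 0.0113). Tnc ended at 5.15, 6.88 and 1.56 TPM (-3.39, SE 0.85, adjusted p = 0.0114), and Thbs1 went from 78.7, 68.2 and 48.7 TPM to 9.30, 14.2 and 5.41 TPM (-2.70, SE 0.64, adjusted p = 0.00938). All D14 libraries lay below all D7 libraries for 9 of the 10 genes, Postn, Tnc and Thbs1 among them. The share of all genes that did so is not given.

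Fn1 fell by 2.55 (SE 0.63, adjusted p = 0.0105), Thbs2 by 2.38 (SE 0.69, adjusted p = 0.0185), Thbs4 by 2.05 (SE 0.63, adjusted p = 0.0237) and Sparc by 1.55 (SE 0.35, adjusted p = 0.00798). Tnmd went from its D7 peak to 54.7, 73.9 and 14.9 TPM (-2.07, SE 0.54, adjusted p = 0.0132). Comp, at 49.9, 84.6 and 53.9 TPM on D7 and 28.9, 38.5 and 6.69 TPM on D14, did not pass the test (-1.57, SE 0.67, adjusted p = 0.0747). Fmod, at 243, 295 and 268 TPM on D7 and 220, 275 and 62.1 TPM on D14, overlapped between the days (-0.78, SE 0.53, adjusted p = 0.24). Among these calls, that of Thbs4 was lost with each other scaling (adjusted p from 0.0565 to 0.0832) and that of Tnmd with median-of-ratios scaling (adjusted p = 0.052). None of the 8 calls held without replicate 3 of WT D14, the lowest of its group for all 10 genes (Postn -3.49, adjusted p = 0.0739). Without replicate 1 of WT D7 only Sparc was called. The shares of all genes called in these smaller fits are not given, so the losses may not be particular to the 10 genes.

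**Figure D2:**
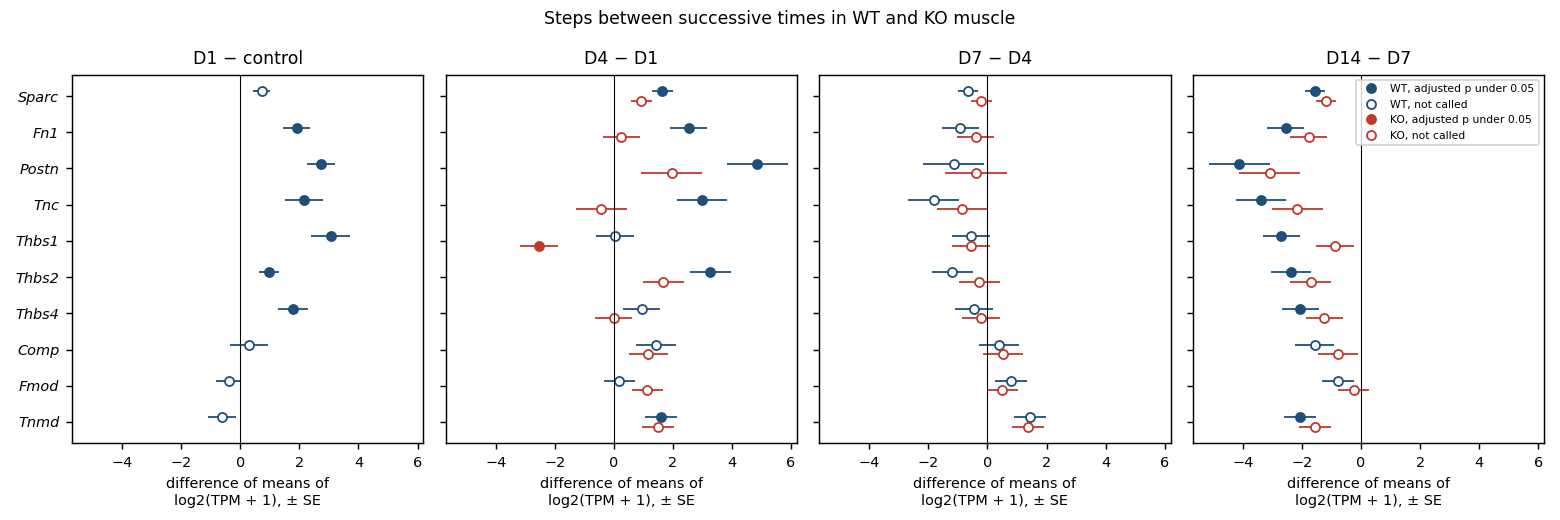
Difference of mean log2(TPM + 1) between successive times, with bars of 1 SE, for WT (blue) and KO (red), where filled symbols mark genes called in limma. The 6 filled WT symbols of the D4 step lie between 1.59 and 4.85 and the 8 of the D14 step between -4.12 and -1.55, and the only filled KO symbol is Thbs1 in the D4 step at -2.53.

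In KO muscle the calls of the D4 step depended on replicate 2 of KO D4. From D1 to D4 Thbs1 was the only gene of the 10 called, and it was lower, where 12.2% of all genes were called lower. Thbs1 had 290, 179 and 290 TPM on KO D1 and 78.1, 24.5 and 38.5 TPM on KO D4, a difference of -2.53 (SE 0.64, adjusted p = 0.0111), and the groups did not overlap. Without replicate 3 of KO D1 it lost the call (adjusted p = 0.0528). Platelet markers summed to 444 to 1011 TPM on KO D1 and to 55.8 to 122 TPM on KO D4, and macrophage markers to 594 to 870 TPM and 73.6 to 471 TPM. Of the 5 platelet markers, 3 reached a mean of 1 TPM on KO D1 and 2 on KO D4.

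Postn in KO D4 muscle was at 1966, 41.6 and 1112 TPM. The mean of replicates 1 and 3 was 37.0 times the value of replicate 2, which lay below all KO D1 libraries (141, 90.9 and 122 TPM). Tnc showed the same picture with 155, 7.35 and 75.9 TPM, where the other libraries had 15.7 times as much as replicate 2. For Thbs2, at 140, 11.6 and 71.2 TPM, the ratio was 9.11, for Fn1, at 1232, 184 and 716 TPM, 5.30, and for Thbs4, at 767, 166 and 670 TPM, 4.34. Sparc and Thbs1 were also lowest in replicate 2, with ratios of 1.89 and 2.38.

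The tendon genes Tnmd, Comp and Fmod were not low in that library. Tnmd was at 48.9, 49.3 and 48.4 TPM in the KO D4 libraries, Comp at 33.3, 40.3 and 32.4 TPM and Fmod at 173, 248 and 148 TPM, each highest in replicate 2. Regenerating muscle markers summed to 884, 47.3 and 958 TPM, macrophage markers to 471, 73.6 and 421 TPM, mature myofibre markers to 45584, 94478 and 77778 TPM, and fibro-adipogenic progenitor markers to 1588, 1545 and 1293 TPM in the same 3 libraries. Schwann cell markers, 5 in the list, summed to 477, 1678 and 238 TPM. The part of these cell types in the levels of the 10 genes was not tested.

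Without replicate 2, Postn in KO D4 against D1 had a difference of 3.66 (adjusted p = 0.00376), Thbs2 of 2.67 (adjusted p = 0.00495) and Sparc of 1.22 (adjusted p = 0.0303), and all 3 were called higher. With it the values were 1.96 (SE 1.03, adjusted p = 0.178), 1.67 (SE 0.69, adjusted p = 0.0902) and 0.93 (SE 0.35, adjusted p = 0.0653). The share of all genes called without replicate 2 is not given. Tnmd had a difference of 1.5 (SE 0.54, adjusted p = 0.0581), and its D4 libraries all lay above its D1 libraries of 23.6, 15.8 and 12.3 TPM. Tnmd was called under each of the 3 other scalings (adjusted p from 0.0161 to 0.0313).

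From D4 to D7 in KO muscle none of the 10 genes was called, nor was any other gene (0%). The unadjusted p was under 0.05 for 1 of the 10 and for 1555 of all genes. Tnmd reached 213, 61.3 and 164 TPM on KO D7, above all of its KO D4 libraries, as in WT. How many of all genes did so is not given. From D7 to D14 again none of the 10 was called, where 0.56% of all genes were called, and 6 of the 10 and 3035 of all genes had an unadjusted p under 0.05. The libraries of 6 genes did not overlap and were lower on D14 (Tnc, Postn, Thbs2, Sparc, Fn1 and Tnmd), as for 25.7% of all genes.

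Postn was at 798, 90.5 and 566 TPM on KO D7 and at 64.3, 30.5 and 31.6 TPM on KO D14 (-3.09, SE 1.03, adjusted p = 0.147). Tnc was at 39.4, 10.3 and 35.1 TPM and at 3.05, 4.30 and 7.72 TPM (-2.15, SE 0.85, adjusted p = 0.194). Replicate 2 of KO D7 was the lowest of its group for all 10 genes, tendon genes included, and its myofibre markers summed to 127173 TPM against 83879 and 78184 TPM. Without replicate 2 of KO D4 and of KO D7, the libraries with over 500 fewer detected genes than the others of their groups, 7 of the 10 genes were called lower on D14, with Postn at -4.05 (adjusted p = 0.000766) and Tnc at -2.74 (adjusted p = 0.0169). The share of 0.56% of all genes belongs to the fit of all libraries. The share without these libraries is not given, so the count of 7 cannot be set against it.

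**Figure D3:**
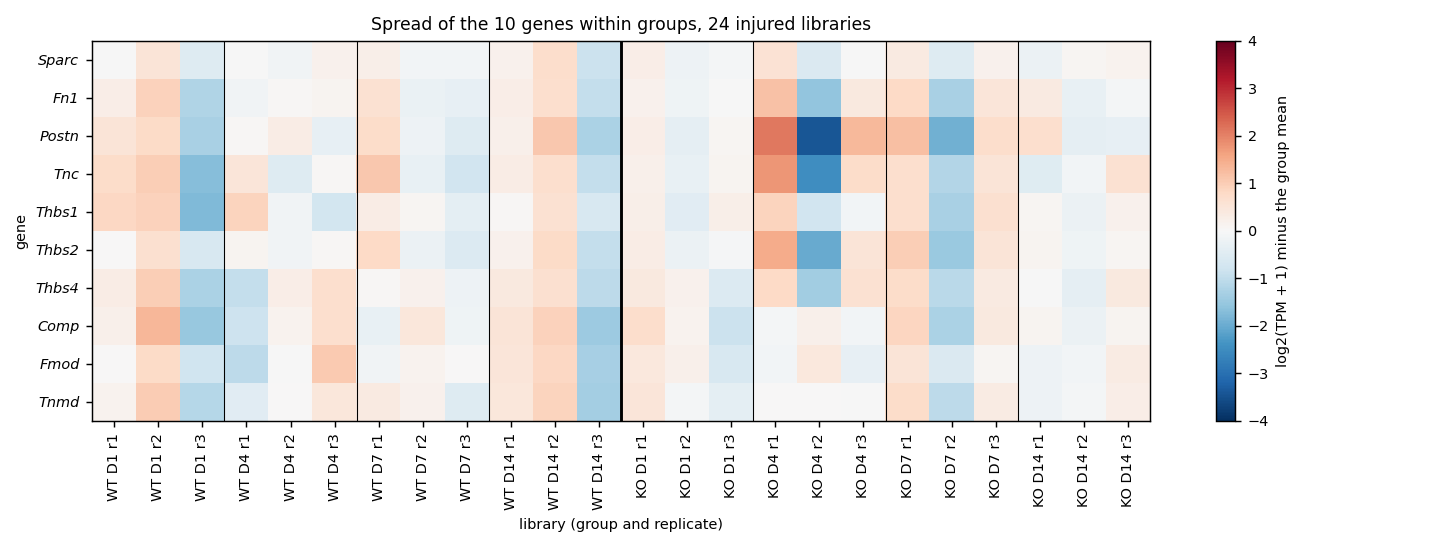
Deviation of log2(TPM + 1) from the mean of its own group for the 10 genes (rows) in the 24 injured libraries (columns), with red for higher and blue for lower. Whole columns are blue in replicate 3 of WT D1 and of WT D14 and in replicate 2 of KO D7, whereas in replicate 2 of KO D4 Postn deviates by -3.41 and Tnc by -2.48 while Tnmd (0.01), Comp (0.19) and Fmod (0.42) lie at or above their group means.

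The effect of Gsdme loss was asked of KO against WT muscle on each day. None of the 10 genes was called on D1 (where 0.00636% of all genes were called), on D4 (0%), on D7 (0%) or on D14 (0%) by limma. At an unadjusted p under 0.05 there were 1, 2, 0 and 0 of the 10 genes and 845, 3568, 481 and 324 of all genes on the 4 days. Averaged over the days no gene of the 10 was called (0.00636% of all genes), and a joint test of whether the KO effect differed between days called none either (0% of all genes, lowest adjusted p of 0.527 among the 10). At an unadjusted p under 0.05 these tests gave 0 and 1 of the 10 genes and 556 and 1203 of all genes.

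On D1 Thbs1, Tnc and Fn1 were higher in all KO than in all WT libraries, which is 3 of the 10 genes where 3.33% of all genes were without overlap and higher. Thbs1 was at 290, 179 and 290 TPM in KO and at 166, 177 and 26.2 TPM in WT (KO minus WT 1.41, SE 0.64, adjusted p = 0.873). Tnc was at 71.4, 49.2 and 65.6 TPM against 38.2, 44.9 and 6.15 TPM (1.41, SE 0.85, adjusted p = 0.873), and Fn1 at 524, 407 and 458 TPM against 261, 407 and 93.9 TPM (1.09, SE 0.63, adjusted p = 0.873). The separation was narrow, since the lowest KO library of Thbs1 and of Fn1 lay within 2 TPM of the highest WT library. Without replicate 3 of WT D1, the library with the highest myofibre marker sum of its group, the differences were 0.52 for Thbs1, 0.56 for Tnc and 0.50 for Fn1. Postn overlapped between the genotypes (1.01, SE 1.03, adjusted p = 0.876).

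On D4, 9 of the 10 genes had a lower mean in KO (8 with median-of-ratios scaling, where Tnmd turned to 0.02), and the median difference was -0.95 over the 10 and -0.28 over all genes. None of the 10 was lower in all KO than in all WT libraries, where 11.2% of all genes were. Tnc differed by -2.0 (SE 0.85, adjusted p = 0.212), Postn by -1.88 (SE 1.03, adjusted p = 0.248), Thbs2 by -1.51 (SE 0.69, adjusted p = 0.213), Fn1 by -1.20 (SE 0.63, adjusted p = 0.235) and Thbs1 by -1.16 (SE 0.64, adjusted p = 0.248). Thbs4 differed by -0.74 (SE 0.63, adjusted p = 0.425) and Sparc by -0.64 (SE 0.35, adjusted p = 0.243). Without replicate 2 of KO D4 and of KO D7 the differences were -0.76 for Tnc, -0.18 for Postn, -0.51 for Thbs2, -0.42 for Fn1, -0.78 for Thbs1, -0.04 for Thbs4 and -0.35 for Sparc.

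On D7 the mean of log2(TPM + 1) was lower in KO for all 10 genes and the mean TPM for 9, Fmod being the exception, with a median difference of -0.55 over the 10 and -0.19 over all genes. Fmod turned higher in KO with each of the 3 other scalings, by 0.07 to 0.20, and Sparc (0.04) with median-of-ratios scaling. On this day only Thbs1 was without overlap, at 45.3, 10.8 and 44.3 TPM in KO and 78.7, 68.2 and 48.7 TPM in WT, where 14.6% of all genes were without overlap and lower. On D14 the mean of log2(TPM + 1) was higher in KO for 9 of the 10 genes (7 with median-of-ratios scaling or quantile normalization) and the mean TPM for 6. The median difference was 0.18 over the 10 and 0.08 over all genes, and the genotypes overlapped for every gene, where 7.37% of all genes were without overlap and higher. The differences on that day ran from -0.11 to 0.66. Averaged over the days they ran from -0.53 (Postn) to 0.01 (Fmod), and in an exact two-sided permutation test of that average, which exchanged genotypes within days, the lowest p was 0.233 (Thbs2).

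**Figure D4:**
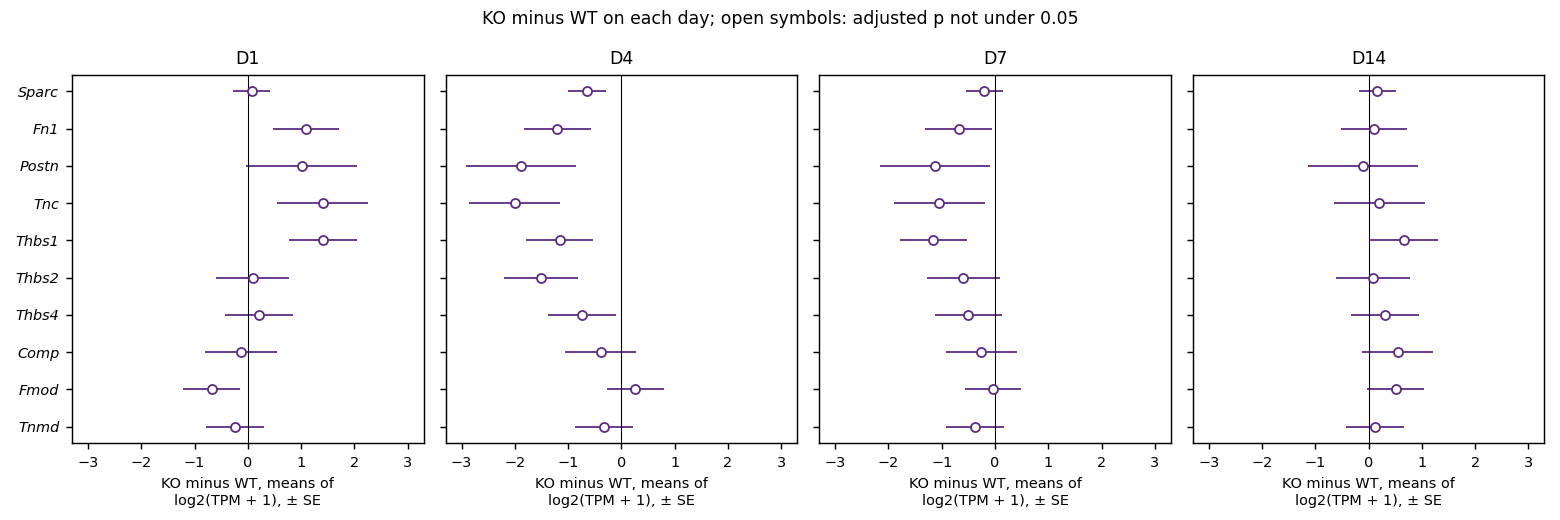
KO minus WT difference of mean log2(TPM + 1) on each day, with bars of 1 SE. No gene was called on any day, the D4 values of Tnc (-2.0) and Postn (-1.88) lie farthest from 0, and the D14 values lie between -0.11 and 0.66.

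The variation between libraries of a group sorted the 10 genes further. Over the deviations of the 24 injured libraries from their group means, which share library and scaling and are given as a description, Postn correlated with Thbs2 at Pearson's r of 0.96, with Fn1 at 0.95 and with Tnc at 0.90, but with Tnmd at 0.53, Comp at 0.43 and Fmod at 0.21. Tnmd correlated with Comp at 0.94 and with Fmod at 0.86. Thbs4 stood between, with 0.80 to Comp and 0.88 to Fn1. This split between Postn and the tendon genes was smaller without replicate 2 of KO D4 and of KO D7, where Postn correlated with Tnmd at 0.76, Comp at 0.66 and Fmod at 0.50, while Thbs4 correlated with Comp at 0.96, Fmod at 0.94 and Tnmd at 0.92.

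Among 11087 named genes of at least 5 TPM in a group, those with deviations most like Postn over the 24 libraries were Cthrc1 (0.981), Col5a2 (0.975) and Fstl1 (0.973). For Thbs2 the closest were Col5a2 (0.989) and Loxl1 (0.987), and for Sparc the type I collagen genes Col1a2 (0.989) and Col1a1 (0.981). Tnmd was closest to Comp (0.941) and to Kera (0.937), the gene of keratocan, a proteoglycan related to fibromodulin. Fmod was closest to Igfbp6 (0.946) and to Cilp2 (0.929), and Thbs4 to Mgp (0.963) and Cilp (0.951). Thbs1 was closest to Pls3 (0.952) and Tnc to Cul7 (0.967). Without replicate 2 of KO D4 and of KO D7 the closest gene was another for 7 of the 10, namely Postn (Fn1, 0.949), Fn1 (Loxl1, 0.952), Thbs1 (Clec4n, 0.955), Thbs4 and Comp (each other, 0.964), Tnmd (Abi3bp, 0.947) and Fmod (Cilp2, 0.972), and none of the 5 closest genes of Thbs1 remained.

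Other genes of these families were read from lists. Of 7 tested relatives of the tenascins, thrombospondins and SPARC, 5 were called higher from D1 to D4 in WT, and of 12 CCN and other matricellular genes 6 were, with medians of 1.01 and 0.81, where 14.6% of all genes were called higher with a median of 0.17. The relative Thbs3 was at 11.9 ± 5.75 TPM on WT D1, 76.9 ± 15.7 TPM on D4 and 18.1 ± 5.69 TPM on D14 (SD, n = 3). More abundant relatives differed from this course. Sparcl1 had its highest WT mean on D7, at 274 ± 46.8 TPM against 162 ± 36.1 TPM on D4. Smoc2 changed less, from 65.6 ± 5.26 TPM on D1 to 103 ± 33.2 TPM on D4 and 80.8 ± 2.91 TPM on D14. Spp1, the gene of osteopontin, a matricellular cytokine of macrophages, was at 621 ± 423 TPM on WT D1, 534 ± 675 TPM on D4 and 3.96 ± 1.87 TPM on D14. In KO it was at 2089 ± 450 TPM on D1, 112 ± 94.3 TPM on D4, 18.6 ± 9.37 TPM on D7 and 10.4 ± 3.42 TPM on D14, and the genotypes were not called different on D1 (limma, adjusted p = 0.873).

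Of 10 small leucine-rich proteoglycans, the family of fibromodulin, 5 were called higher from D1 to D4 in WT (median 1.03, against 14.6% of all genes) and 3 lower from D7 to D14 (median -0.83), which is near the 30.9% of all genes called lower. Bgn (biglycan) had its highest WT mean on D4 like Postn, at 1399 ± 74.1 TPM, and Lum (lumican) on D7 like Tnmd, at 153 ± 16.1 TPM (SD, n = 3). Of 14 tested tendon regulators and tendon or cartilage matrix genes, 4 were called higher and 2 lower from D1 to D4, 3 higher from D4 to D7 and 7 lower from D7 to D14 in WT, with medians of 0.56, 0.78 and -1.15. Over all genes these shares were 14.6%, 5.27%, 3.04% and 30.9%, with medians of 0.17, -0.24 and -0.45. Scx, the gene of the tendon transcription factor scleraxis, had its highest WT mean on D4 at 52.8, 52.9 and 41.0 TPM, against 5.42, 5.54 and 8.33 TPM in control. Mkx, the gene of mohawk, another tendon transcription factor, had its highest WT mean on D7 with 15.2, 7.23 and 6.11 TPM, the day of the Tnmd peak. The most abundant genes of this list, Cilp, Prg4 and Angptl7, differed in course. From D1 to D4 in WT, Cilp was called higher (3.12, limma, adjusted p = 0.00183). Prg4 fell from 325 ± 226 to 64.2 ± 19.2 TPM (-2.07, adjusted p = 0.0116). Angptl7 fell from 79.2 ± 68.6 to 11.2 ± 10.8 TPM (-2.70, adjusted p = 0.0124), and both were called lower. Of 13 tested integrin subunits and other receptors of these proteins, 7 were called higher on WT D1 than in control, a share near the 55.4% of all genes, and 6 were lower on D14 than on D7, where 30.9% of all genes were. In the KO against WT comparisons of single days, averaged days and between days, limma called no gene of these 5 lists.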

How the data were processed

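TPM values per gene were deposited by the authors as 2 tables, with the 24 injured libraries in the larger and the 3 control and 3 WT D1 libraries in the other. The WT D1 libraries were quantified anew for each. For the 10 genes the WT D1 values differed between tables by at most 3.45%, and every comparison was made within 1 table. The library kit was SMARTER mRNA-Seq, with paired-end reads. The build was mm10 per the labels, and the aligner, the counting tool and the annotation are not given in the sources used here. Columns of group means, which are the authors' means, served only as a check. Sample titles gave the group and number of each library.

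Genes of at least 1 TPM in at least 3 libraries were kept. Values were fitted as log2(TPM + 1) with limma 3.58.1 in R 4.3.3, with 1 mean per group, moderated variances with a trend, and Benjamini-Hochberg adjustment over all genes tested. The fit was tried on simulated data whose noise was independent between libraries and genes and capped in spread. Libraries that deviate as a whole, and spreads as wide as that of Postn in KO D4, were not simulated. Its outcome is not given and does not bear on the calls of the 10 genes. A fold change on this scale understates the change of genes of low TPM. The members and the gene lists were chosen with earlier results of these data known. All 10 members are named. Of each context list at most 3 genes could be named, those of highest mean TPM over the injured libraries, and Scx, Mkx and Gsdme were given as reference genes. Per member, genes most alike were ranked by Pearson's r. Alternatives changed the pseudocount, the filter, the scaling, the weights, the groups fitted, the replicate block and each library in turn. Promoter windows came from RefSeq and gene positions from GENCODE.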

Additional observations from a re-analysis of the deposited data

How the results depend on the processing

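Of 748 counted values of single genes under other settings, 639 kept their direction and their side of the threshold. In that count 44 passed the threshold newly, 58 no longer did and 7 changed direction. The count leaves out some changes of sign, mostly of small differences. With median-of-ratios scaling, KO against WT on D1 went from 0.09 to -0.02 for Thbs2 and from 0.07 to -0.05 for Sparc. From D1 to D4 in WT, 10 genes were higher in the main fit and 8 with each of the 3 other scalings. From D4 to D7 in WT, where none of the 10 genes was called, 1 was called with median-of-ratios scaling, with quantile normalization and without the 50 most abundant genes, 2 with only the compared groups fitted, 3 without replicate 2 of KO D4 and of KO D7, and 8 with library quality weights. Over all genes this step had 1941 calls of 15718 in the main fit. It had 1830 of 15582, 2256 of 15718 and 1668 of 17236 with those scalings, in the same order. From D1 to D4 in KO (1 called), 4 were called with each of the 3 other scalings and without those 2 libraries, 3 with weights and 2 with only the compared groups. Over all genes that step had 3049 calls of 15718 in the main fit. With the scalings in the same order it had 4090 of 15582, 4204 of 15718 and 4156 of 17236. From D7 to D14 in KO (0 called), 9 were called with weights, 7 without those 2 libraries and 1 with only the compared groups. For WT D1 against control (6 called), 3 were called with no filter on low values and 3 without the 50 most abundant genes. Over all genes the calls there were 7965 of 13041 in the main fit and 6206 of 14401 without the 50 most abundant genes. The cause was not tested. Leaving out 1 library at a time gave 0 to 4 calls for KO D4 against D1, 0 to 1 for KO D14 against D7, 3 to 8 for WT D1 against control, 3 to 7 for WT D4 against D1 and 0 to 9 for WT D14 against D7, and never a call between KO and WT. The removal of replicate 2 of KO D4 and KO D7 was chosen after seeing the data. For the fits with weights, with another filter, with only the compared groups or without libraries, the share of all genes called is not given. Those counts describe the settings and are no result about the 10 genes.

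Against control, Comp on WT D1 turned to -0.44 with median-of-ratios scaling, -0.40 with quantile normalization and -0.20 without the 50 most abundant genes, and Sparc to -0.0636 with median-of-ratios scaling. Leaving out 1 library gave -0.36 to 1.07 for Comp and -0.77 to 0.0048 for Fmod. The labels do not pair same-numbered WT and KO libraries. Their deviations from the group means correlated at -0.40 to 0.39 within days. With no known pairs to compare, this cannot settle whether equal numbers were handled together. A replicate block changed no count: 6 calls for WT D1 against control, 6 for WT D4 against D1, 0 for WT D7 against D4, 8 for WT D14 against D7, 1 for KO D4 against D1 and 0 in the other comparisons. The scaling moved the direction of calls over all genes: the share called higher was 73.5% for WT D4 against D1, 24.6% for D7 against D4 and 2.9% for D14 against D7, and 46.0%, 50.7% and 37.7% with median-of-ratios scaling. With no read depth, low genes such as Tnc on D14 have an unknown counting error.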
